A study of Mus musculus with 4 samples.

Results

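The genes described here build the postsynaptic side of the neuromuscular junction, the synapse at which a motor axon drives a muscle fibre. They are 10 named genes, out of 32868 gene names in the deposited expression files, and each of the 10 was found as 1 row. Chrna1, Chrnb1, Chrnd, Chrne and Chrng encode the alpha, beta, delta, epsilon and gamma subunits of the muscle acetylcholine receptor. Lrp4, Musk, Dok7 and Rapsn encode the proteins that cluster this receptor, and Colq encodes the collagen tail that anchors acetylcholinesterase in the synaptic cleft.

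The muscle was the tibialis anterior, which lifts the foot and is made mostly of fast fibres, and its RNA was sequenced at postnatal day 21 in C57BL/6 mice. The 2 libraries of the Nf1-KO group carried the genotype Nf1flox/flox/Myf5+, and the 2 Het libraries carried Nf1flox/+/Myf5+. Both groups thus share the Myf5+ allele and at least 1 floxed allele of Nf1, the gene of the Ras inhibitor neurofibromin, and no library without a floxed allele was compared. The labels do not spell out the Myf5+ allele. In crosses of this kind it stands for a Cre recombinase driven by Myf5, which is active in muscle precursors, so axons and Schwann cells of the muscle would be expected to keep Nf1. The labels do not say whether the libraries of a group came from separate animals, and p-values then measure only the spread between these libraries.

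In a mature junction the receptor is a ring of 2 alpha subunits with 1 each of beta, delta and epsilon, and the fetal receptor carries gamma in the place of epsilon. Agrin, released by the axon, binds LRP4 and so activates the receptor kinase MuSK. MuSK works with the adaptor DOK7, and rapsyn (Rapsn) ties receptors together beneath the membrane. Nuclei under the synapse transcribe receptor genes through an ETS-factor element known as the N-box, while electrical activity silences them elsewhere along the fibre. In denervated muscle the alpha, delta and gamma genes are transcribed along the whole fibre through E-boxes, which bind myogenic factors such as myogenin.

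Because these 2 elements are the textbook switches of the subunit genes, the bases before the start site are shown for 4 receptor genes. These 4 had an entry in the set of RefSeq promoters used here. They are Chrna1, which rose, Chrnb1 and Chrne, which did not pass, and Chrng, which was too low to test. Chrnd, which rose as well, had no entry in that set. The bases shown come from RefSeq (build GRCm38.p6, whereas the submitters' processing notes name mm9). The sequences read 5′ to 3′ on the gene's own strand and stop before the outermost annotated start of the gene. The regions are chr2:73580339-73580588 for Chrna1, chr11:69795967-69796187 for Chrnb1 and chr11:70619214-70619444 for Chrne, all on the minus strand, and chr1:87205561-87205810 for Chrng on the plus strand. Capitals mark CAGCTG, the E-box form sought, and CCGGAA, the core of the N-box, each searched on both strands.
Chrna1: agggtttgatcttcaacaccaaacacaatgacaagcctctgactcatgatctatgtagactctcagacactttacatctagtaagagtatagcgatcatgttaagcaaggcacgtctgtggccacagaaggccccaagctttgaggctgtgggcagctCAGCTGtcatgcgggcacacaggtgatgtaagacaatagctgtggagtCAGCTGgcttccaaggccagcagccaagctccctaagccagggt
Chrnb1: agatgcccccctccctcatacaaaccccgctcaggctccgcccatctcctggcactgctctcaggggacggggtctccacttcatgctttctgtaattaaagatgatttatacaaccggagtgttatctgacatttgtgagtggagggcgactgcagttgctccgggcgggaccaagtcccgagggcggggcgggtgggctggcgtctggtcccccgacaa
Chrne: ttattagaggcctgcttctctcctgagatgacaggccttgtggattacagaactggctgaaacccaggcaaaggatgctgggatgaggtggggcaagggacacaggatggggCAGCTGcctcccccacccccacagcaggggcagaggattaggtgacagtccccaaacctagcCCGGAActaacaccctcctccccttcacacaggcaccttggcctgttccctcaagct
Chrng: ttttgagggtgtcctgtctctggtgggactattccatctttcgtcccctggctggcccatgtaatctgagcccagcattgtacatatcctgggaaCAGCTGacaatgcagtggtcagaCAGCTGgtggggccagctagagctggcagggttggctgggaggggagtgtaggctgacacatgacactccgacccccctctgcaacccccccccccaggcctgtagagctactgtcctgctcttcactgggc
The set of RefSeq promoters used here held an entry for 6 of the 10 genes (Chrna1, Chrnb1, Chrne, Chrng, Musk and Dok7). Chrnd, Rapsn, Lrp4 and Colq were missing from that set, so their promoters were not searched. In the 250 bases before the start site, CAGCTG stood 2 times in Chrna1 and 2 times in Chrng, 1 time in Chrne and 1 time in Musk. It did not occur in these windows of Chrnb1 and Dok7. Of 32851 promoter windows of this length, 13.0% held this E-box. The N-box core CCGGAA was found in Chrne alone among these 6 genes, ending 71 bases before its start site, and in 12.0% of all windows. The looser E-box CANNTG, which includes the form above, occurred in 66.2% of all windows and in each of the 6 genes. It stood 3 times in each of Chrna1, Chrnb1, Chrng and Musk and 1 time in Chrne. Dok7 held 1 match before 1 annotated start and 0 before the other. By this looser form Chrna1, which rose, and Chrnb1, which did not pass, did not differ in count. These matches describe the letters and show no binding.

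Values are RPKM, reads scaled to gene length and library depth, as read from the deposited values, so levels of different genes can be set side by side as far as the authors' gene lengths hold. Library depth, estimated from the steps of low values, ranged from 36500000 to 58200000 reads, with the shallowest and the deepest library both in Het. Changes were tested with limma on log2(RPKM + 1) after scaling between libraries, in 10690 genes of at least 0.5 RPKM in at least 2 libraries, with a threshold of 0.05 on the adjusted p. In all, 50.3% of tested genes passed, 24.9% higher and 25.4% lower in Nf1-KO. Without scaling, 66.6% of the passing genes were higher, against 49.5% with it, and the median log2 change of tested genes was 0.07 in place of 0.00. Nf1 itself was 1.09 and 1.01 RPKM in Het and 0.89 and 0.85 RPKM in Nf1-KO, a log2 change of -0.18 (limma adjusted p 0.0407). That call was lost on leaving out any 1 library, with log2 changes from -0.21 to -0.15. The authors' deposited comparison table, built from counts of the same libraries, gave Nf1 a log2 change of -0.38 (adjusted p 0.00258).

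Of the 10 junction genes, 5 rose in Nf1-KO muscle (Chrna1, Chrnd, Musk, Colq and Lrp4), 0 fell, 4 did not pass (Chrne, Chrnb1, Rapsn and Dok7), and Chrng was too low to be tested. The 5 of 9 tested genes stand beside 50.3% of all tested genes that passed in either direction, so the share that changed is near the background. The direction was 5 higher and 0 lower where 24.9% of all genes passed as higher. The median log2 change of the 9 tested genes was 0.28, beside 0.00 over all tested genes. All 9 reached 0.5 RPKM in each of the 4 libraries, so none entered the test through 1 group only. As deposited, both Nf1-KO libraries lay above both Het libraries in each of the 9, where 49.8% of all tested genes did so and 77.3% kept the groups apart in either direction. By the scaled values 76.3% of all tested genes kept them apart, and Chrnb1 was the 1 gene of the 9 whose groups overlapped. In bulk tissue, more synapses or fibres with a transcript cannot be told apart from more transcript per fibre.

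**Figure D1:**
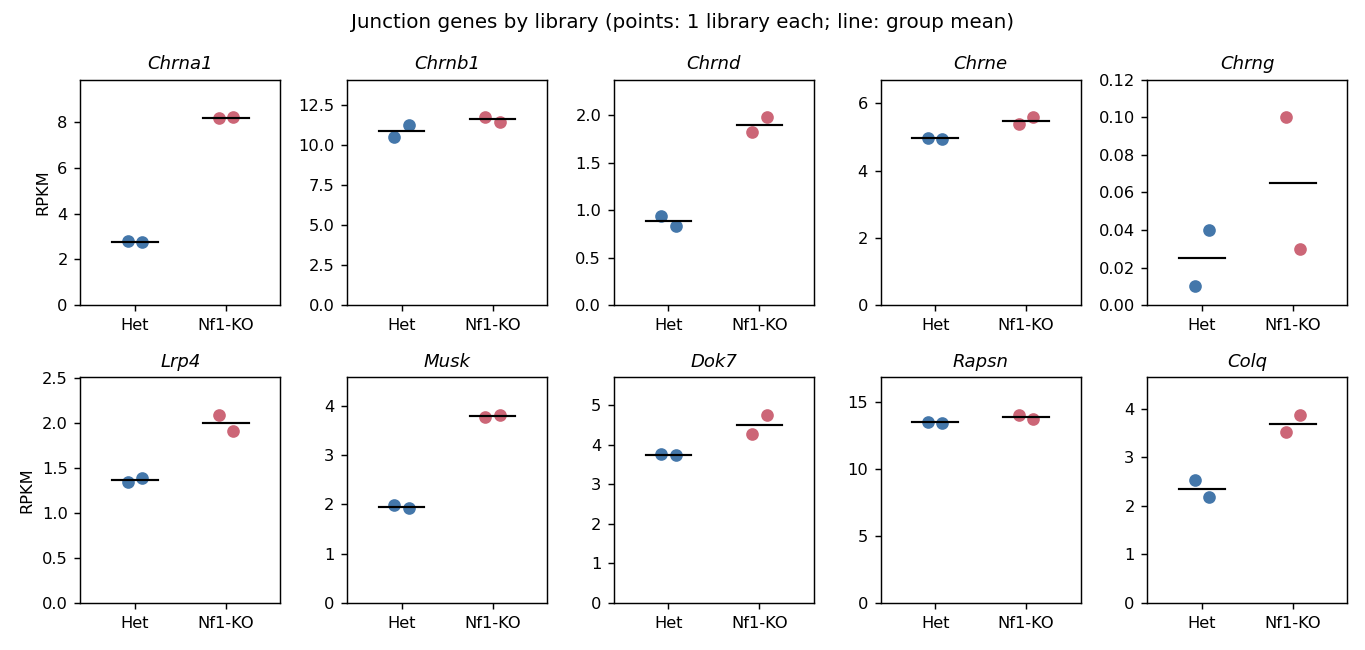
RPKM of each of the 10 genes (vertical axes, starting at 0 and differing between panels) in the 2 Het and 2 Nf1-KO libraries, 1 point per library, with a line at the group mean. Chrna1, Chrnd, Musk, Lrp4 and Colq separate the groups widely, while Chrng stays at or below 0.1 RPKM in every library.

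Chrna1, whose product carries the acetylcholine binding face and is needed 2 times per receptor, changed most. Het libraries 1 and 2 measured 2.79 and 2.75 RPKM, and Nf1-KO libraries 1 and 2 measured 8.17 and 8.21 RPKM. Replicates differed by 0.04 RPKM within each group, and the groups were far apart. The ratio of the group means was 2.96, and the log2 change was 1.21 with a standard error of 0.042 (limma adjusted p 5.0e-06).

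Chrnd, the delta subunit found in both the fetal and the adult receptor, was the lowest of the subunits that could be tested. Its values were 0.94 and 0.83 RPKM in Het and 1.82 and 1.98 RPKM in Nf1-KO. The groups did not overlap. The ratio of means was 2.15, and the log2 change was 0.57 with a standard error of 0.062 (limma adjusted p 5.7e-04). Since a pseudocount of 1 compresses such low values, the change with a pseudocount of 0.1 was larger, at 0.94 (limma adjusted p 6.9e-04).

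The other subunits of the adult receptor moved little. Chrnb1, the beta subunit, was 10.52 and 11.27 RPKM in Het and 11.75 and 11.48 RPKM in Nf1-KO. Its 2 Het libraries differed more from each other than the nearest libraries of the 2 groups did. The log2 change was 0.00 with a 95% interval from -0.11 to 0.10 (limma adjusted p 0.983), and without scaling it was 0.09 (0.142).

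Chrne, the epsilon subunit that defines the adult receptor, was 4.98 and 4.94 RPKM in Het and 5.39 and 5.58 RPKM in Nf1-KO. Both Nf1-KO libraries were slightly higher, with a ratio of means of 1.11 before scaling. The log2 change was 0.04 with a 95% interval from -0.06 to 0.15 (limma adjusted p 0.449), and 0.12 without scaling (0.054).

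Chrng, the gamma subunit of the fetal receptor, was close to the limit of detection in all libraries. It was listed at 0.01 and 0.04 RPKM in Het and at 0.10 and 0.03 RPKM in Nf1-KO, and the groups overlapped. With its longest annotated transcript of 2780 bases and the estimated depths, these values stand for roughly 1.0, 6.5, 13 and 4.3 reads. The gamma gene therefore made up 0.20% and 0.80% of gamma plus epsilon RPKM in Het and 1.82% and 0.54% in Nf1-KO. The exact two-sided permutation p over the 4 libraries was 0.667, where the smallest that 2 against 2 allows is 0.333. The mean difference of 0.676 percentage points was 0.033 without Nf1-KO replicate 1, and up to 1.32 on leaving out another library. Epsilon RPKM thus exceeded gamma RPKM by a wide margin in both groups, and a shift between them was not detectable at this depth.

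The summed RPKM of the 5 subunit genes was 19.2 and 19.8 in Het and 27.2 and 27.3 in Nf1-KO, and its make-up shifted toward alpha. Chrna1 took 14.5% and 13.9% of that sum in Het and 30.0% and 30.1% in Nf1-KO. Chrnb1 took 55.8% ± 1.52 (SD, n = 2) in Het and 42.6% ± 0.756 in Nf1-KO, and Chrne 25.4% ± 0.687 and 20.1% ± 0.467. The share of Chrnd was 4.54% ± 0.495 and 6.97% ± 0.406, and that of Chrng was at most 0.367% in any library. Shares of a sum are tied to each other, so the smaller shares of Chrnb1 and Chrne are the other side of the larger share of Chrna1.

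**Figure D2:**
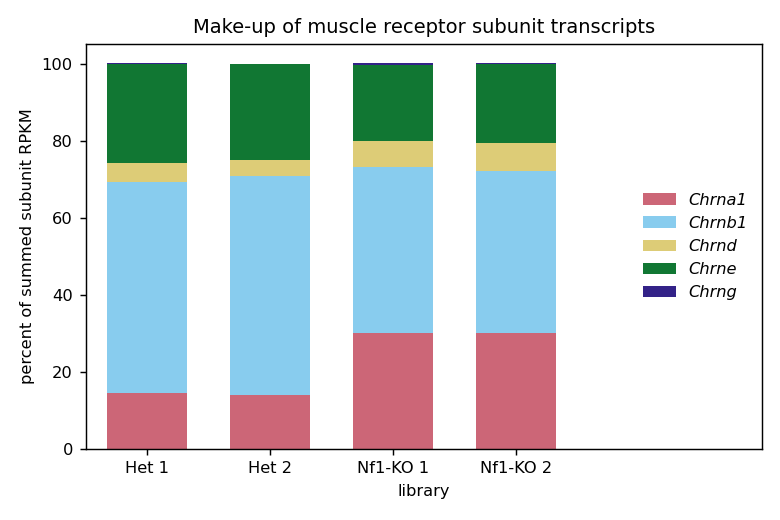
Percent of the summed RPKM of 5 receptor subunit genes (vertical axis) held by each gene in each of the 4 libraries (stacked bars). The Chrna1 segment is 14.5% and 13.9% in the Het libraries and 30.0% and 30.1% in the Nf1-KO libraries, and the Chrng segment is barely visible in any.

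Ratios within a library do not depend on scaling between libraries. Chrna1 over Chrne was 0.56 and 0.557 in Het and 1.52 and 1.47 in Nf1-KO. The alpha gene went from below to above the epsilon gene. Chrna1 over Chrnb1 was 0.265 and 0.244 against 0.695 and 0.715, below 1 in both groups although the receptor holds more alpha than beta protein. Chrnd over Chrne was 0.189 and 0.168 against 0.338 and 0.355. Chrna1 over Chrnd rose less, from a mean of 3.14 to 4.32, since both genes were higher. For each of these 4 ratios the groups did not overlap and the exact two-sided permutation p was 0.333, the smallest possible here.

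Among the genes that cluster the receptor, Musk changed most. The receptor kinase was 1.98 and 1.92 RPKM in Het and 3.77 and 3.81 RPKM in Nf1-KO, with replicates almost identical within a group. The ratio of means was 1.94, and the log2 change was 0.63 with a standard error of 0.049 (limma adjusted p 1.4e-04).

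Lrp4, the agrin receptor that activates MuSK, was 1.34 and 1.39 RPKM in Het and 2.09 and 1.91 RPKM in Nf1-KO. The groups were clearly apart although the change was smaller than that of Musk. The ratio of means was 1.47, and the log2 change was 0.28 with a standard error of 0.058 (limma adjusted p 0.00813).

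Dok7, the adaptor that acts on MuSK from inside the fibre, was 3.77 and 3.73 RPKM in Het and 4.26 and 4.75 RPKM in Nf1-KO. Both Nf1-KO libraries were higher, but they differed from each other by as much as the lower one differed from Het. The log2 change of 0.14, with a 95% interval from 0.00 to 0.27, missed the threshold (limma adjusted p 0.094). It passed without scaling (0.21, adjusted p 0.0236) and without Nf1-KO replicate 1 (0.21, adjusted p 0.041).

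Rapsn, which encodes the scaffold under the receptor, was the most abundant of the 10 genes per length. It was 13.52 and 13.41 RPKM in Het and 14.02 and 13.74 RPKM in Nf1-KO, all 4 values in a narrow range. The log2 change was -0.05 with a 95% interval from -0.13 to 0.03 (limma adjusted p 0.268), and 0.04 without scaling, so its sign turned with the scaling. Chrna1 over Rapsn was 0.206 and 0.205 in Het and 0.583 and 0.598 in Nf1-KO. Musk over Rapsn was 0.146 and 0.143 against 0.269 and 0.277, and Musk over Dok7 was 0.525 and 0.515 against 0.885 and 0.802.

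Colq, the anchor of the esterase, and Ache, the enzyme that it anchors, moved in opposite directions. Colq was 2.53 and 2.18 RPKM in Het and 3.51 and 3.87 RPKM in Nf1-KO, a ratio of means of 1.57. Its log2 change was 0.41 with a standard error of 0.071 (limma adjusted p 0.00391). Ache, not one of the 10 genes, was 10.55 and 10.04 RPKM in Het and 6.43 and 6.01 RPKM in Nf1-KO. Its log2 change was -0.73 with a standard error of 0.047 (limma adjusted p 6.3e-05), and Colq over Ache went from 0.24 and 0.217 to 0.546 and 0.644.

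The order of the 10 genes by RPKM in Het was Rapsn, Chrnb1, Chrne, Dok7, Chrna1, Colq, Musk, Lrp4, Chrnd and Chrng, and no 2 neighbours overlapped between their 2 libraries. In Nf1-KO, Chrna1 moved up to rank 3, above Chrne and Dok7, and Musk stood above Colq. There the libraries of Musk and Colq overlapped, as did those of Lrp4 and Chrnd, so these neighbours did not differ beyond their spread. The longest stretch shared between transcripts of any 2 of the 10 genes was 30 bases, between Chrna1 and Chrnb1, and gamma and epsilon shared at most 15. In GENCODE M21, exons of Rapsn overlap the opposite-strand gene Gm13778 and exons of Colq the same-strand gene Gm49387, and whether counting used strand is not given in the sources used here.

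The authors' deposited table, built from counts of the same libraries, gave the same 5 genes an adjusted p under 0.05, where 31.6% of its 13985 genes had one. Its log2 changes were 1.46 for Chrna1, 1.00 for Chrnd, 0.85 for Musk, 0.55 for Colq and 0.44 for Lrp4. The authors' deposited table gave 0.16 for Dok7 (adjusted p 0.263), 0.04 for Chrne (0.891), -0.02 for Chrnb1 (0.917) and -0.06 for Rapsn (0.668). The mean normalized counts behind these values ranged from 202 for Chrnd to 1150 for Chrnb1 in the authors' deposited table, and Chrng is not a row of it. The changes computed here with a pseudocount of 0.1 were close in size, such as 1.44 for Chrna1 and 0.83 for Musk, because a pseudocount of 1 shortens the change of low genes.

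**Figure D3:**
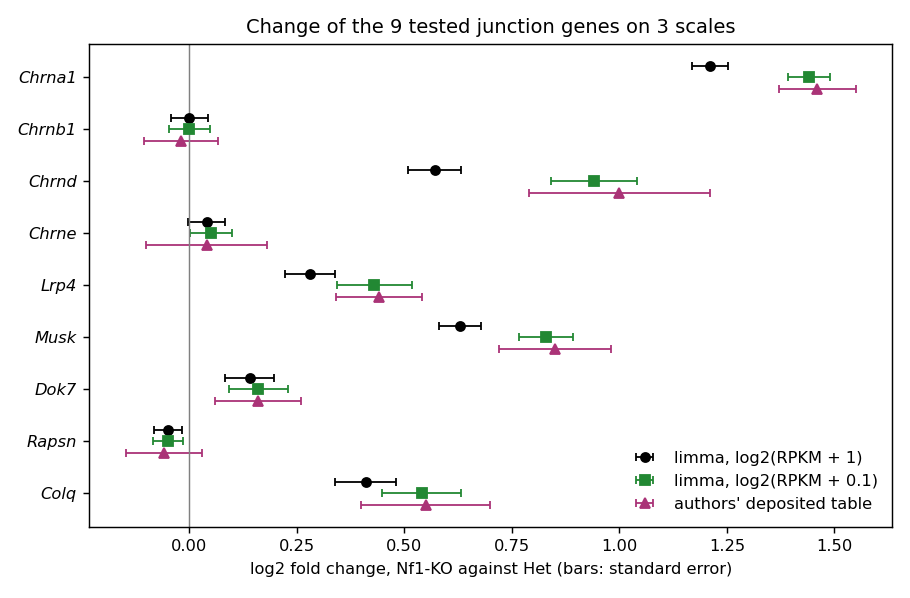
Log2 fold change of Nf1-KO against Het (horizontal axis, bars are standard errors) for the 9 tested genes from limma with a pseudocount of 1 (circles), from limma with a pseudocount of 0.1 (squares) and from the authors' deposited table (triangles). Chrna1 lies highest on each scale, at 1.21, 1.44 and 1.46, and Chrnb1, Chrne and Rapsn lie near 0 on all 3.

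Other genes around the receptor were taken as lists. Among 11 further nicotinic subunit genes, mostly known from neurons and sensory cells, 9 were below the filter and 4 were listed at 0 in all libraries. Chrna2, an alpha subunit of neuronal receptors, was 0.74 and 0.65 RPKM in Het and 3.62 and 3.66 RPKM in Nf1-KO. With a log2 change of 1.40 (standard error 0.056, limma adjusted p 8.9e-06) it was the 1 gene of this list that passed. Chrna10, the other tested gene, was 2.77 and 2.97 against 3.11 and 3.52 RPKM and did not pass (log2 change 0.08, limma adjusted p 0.318), and its exons overlap those of the far more abundant Art1.

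Below the filter, Chrna9, which partners Chrna10 in hair cells, was 0.01 and 0.03 RPKM in Het and 0.22 and 0.31 RPKM in Nf1-KO. The authors' deposited table gave it a log2 change of 3.59 and an adjusted p of 0.0021 on a mean normalized count of 13.2. Chrna4, an alpha subunit of brain receptors, went the other way, from 0.38 and 0.20 RPKM to 0.03 and 0.03 RPKM. For it the authors' deposited table gave -3.38 (mean normalized count 34.9). In both genes the groups did not overlap, but the levels were under those of Chrna1, Chrnb1, Chrnd and Chrne in each library. Chrna9 in Nf1-KO and Chrna4 in Het were above the values of Chrng.

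Genes of the response to activity and denervation changed in part, in a share near that of all genes. Of 9 genes, 3 rose, 0 fell, 4 did not pass and 2 were below the filter, with a median log2 change of 0.13 beside 0.00 over all tested genes. The 3 of 7 tested genes stand beside 50.3% of all tested genes that passed in either direction and 24.9% that passed as higher. Myog (myogenin, an E-box factor) was 0.92 and 1.23 RPKM in Het and 5.19 and 4.53 RPKM in Nf1-KO, a log2 change of 1.44 (limma adjusted p 6.2e-05). Dach2, known as a repressor of Myog, rose as well, from 0.83 and 0.82 RPKM to 2.75 and 2.82 RPKM, with a log2 change of 1.00 (limma adjusted p 2.7e-05). The list thus holds Myog and a repressor of it, so its count of genes that rose does not mark 1 direction of the response.

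Gadd45a, a growth arrest gene induced by denervation, was 5.67 and 6.33 RPKM in Het and 10.89 and 10.57 RPKM in Nf1-KO, a log2 change of 0.66 (limma adjusted p 1.8e-04). Myod1, Hdac4, Hdac9 and Ncam1, an adhesion gene that denervated fibres re-express, did not pass. Ncam1 was 0.50 and 0.53 RPKM against 0.52 and 0.56 RPKM. Runx1, a transcription factor induced by denervation, was below the filter and was 0.16 and 0.14 RPKM against 0.36 and 0.38 RPKM.

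**Figure D4:**
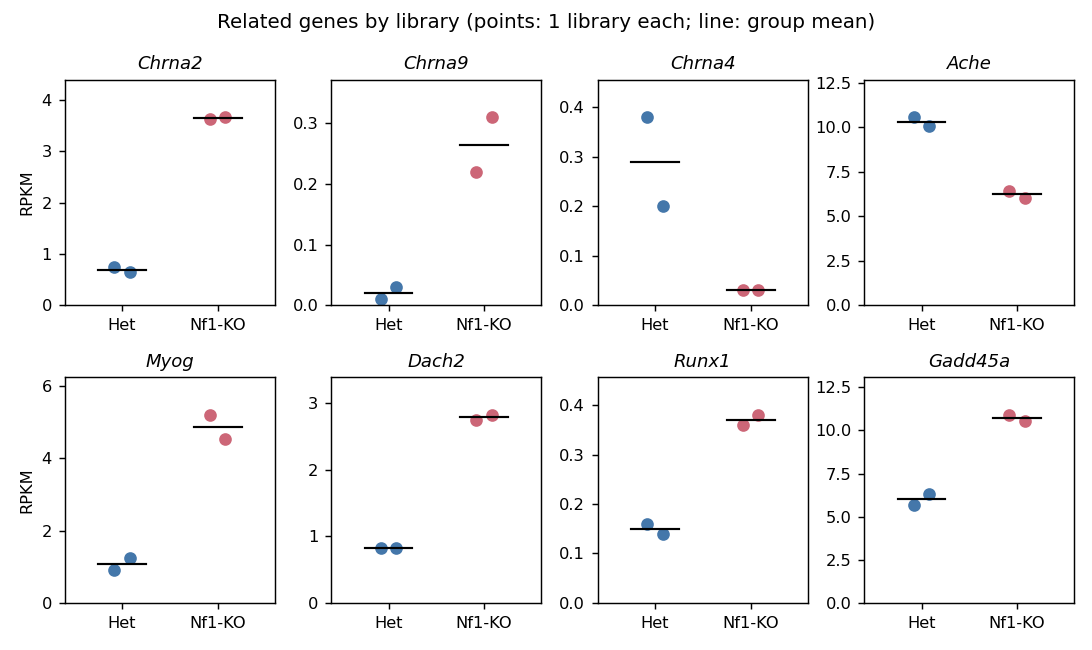
RPKM of 8 related genes (vertical axes, starting at 0 and differing between panels) by group, 1 point per library and a line at the group mean. Chrna2, Chrna9, Myog, Dach2, Runx1 and Gadd45a are higher and Chrna4 and Ache lower in both Nf1-KO libraries, and Chrna4, Chrna9 and Runx1 lie under 0.5 RPKM.

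Most tested genes of the synaptic basal lamina and esterase list fell. Of its 10 genes, 6 fell, 0 rose, 1 did not pass and 3 were below the filter, with a median log2 change of -0.24. The 6 of 7 tested genes stand beside 25.4% of all tested genes that passed as lower. Lama4, a laminin chain, was 2.37 and 2.47 against 2.51 and 2.23 RPKM and did not pass, and Col13a1, a collagen of the junction below the filter, was 0.12 and 0.20 RPKM in Het and 0.27 and 0.36 RPKM in Nf1-KO. Besides Ache, the heparan sulfate proteoglycan gene Hspg2 fell by 0.54 (limma adjusted p 1.5e-04), the nidogen gene Nid2 by 0.39 (0.00143) and Lama5, a laminin chain of the synaptic cleft, by 0.24 (0.00944) on the log2 scale. Most genes of this list also serve the basal lamina of vessels and of the whole fibre, and exons of Ache and Nid2 overlap opposite-strand genes.

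Agrin and MuSK signalling genes showed no common direction, with 5 higher, 7 lower and 5 not passing among 17, and a median log2 change of -0.02. Beside this, 24.9% of all tested genes passed as higher and 25.4% as lower. Without scaling the split in this list was 6 higher and 3 lower. Pak1, a kinase that acts downstream of MuSK, rose from 0.48 and 0.47 RPKM to 1.50 and 1.34 RPKM (log2 change 0.67, limma adjusted p 2.5e-04), and it entered the test through the Nf1-KO libraries alone. Src, counted among the 7 lower, entered through the Het libraries alone, at 0.60 and 0.58 against 0.45 and 0.38 RPKM. The authors' deposited table gave Src an adjusted p of 0.103. For Cttn and Cav3, counted among the 5 higher, it gave 0.224 and 0.391. Apc, which links receptor clusters to microtubules, fell by 0.30, the phosphatase gene Ptpn11 by 0.28 and the cytoskeletal linker gene Macf1 by 0.25 on the log2 scale. Agrn, which codes for agrin, was 1.37 and 1.54 against 1.82 and 1.84 RPKM and did not pass (log2 change 0.15, limma adjusted p 0.0848).

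Of 10 postsynaptic scaffold genes 3 rose, 2 fell and 5 did not pass (median log2 change -0.01). These counts stand beside 24.9% of all tested genes that passed as higher and 25.4% as lower. Sntb1, the beta1-syntrophin gene, rose from 1.14 and 1.19 RPKM to 2.80 and 2.73 RPKM (log2 change 0.74, limma adjusted p 9.5e-05), and Dtna (alpha-dystrobrevin) rose by 0.26. Scn4a, the sodium channel of adult muscle that is dense in the synaptic folds, fell by 0.36, and Ank3, whose ankyrin holds such channels, fell by 0.26 on the log2 scale. Utrn (utrophin), a protein concentrated at the junction, was 3.03 and 3.40 against 3.54 and 3.50 RPKM and did not pass (log2 change 0.03, limma adjusted p 0.708).

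Of 13 genes of neuregulin signalling and synaptic transcription, 2 rose, 1 fell, 6 did not pass and 4 were below the filter (median 0.12). Over all tested genes, 24.9% passed as higher and 25.4% as lower. Etv5, an ETS factor of synaptic nuclei, rose by 0.17 (limma adjusted p 0.0428) and Erf, an ETS repressor, by 0.26 (0.0182). Ufsp1, a gene described in synaptic nuclei, fell by 0.35 (0.00435). The authors' deposited table gave an adjusted p of 0.139 for Etv5, 0.0506 for Erf and 0.00524 for Ufsp1. The calls of Etv5 and Erf were lost without a filter on low values (limma adjusted p 0.111 and 0.0785). Leaving out Nf1-KO replicate 1 ended both (0.153 and 0.0816), as did leaving out Het replicate 2 for Etv5 (0.188) and Het replicate 1 for Erf (0.0912). Without scaling, 6 genes of this list passed as higher. Of 5 glycosylation genes mutated in congenital myasthenia, 3 fell, 0 rose and 2 did not pass (median -0.20). The 3 of 5 stand beside 25.4% of all tested genes that passed as lower and 50.3% that passed in either direction. Alg2, Gfpt1 and Dpagt1 fell by 0.51, 0.49 and 0.20 on the log2 scale. Dpagt1 did not pass without scaling (limma adjusted p 0.0953) or without a filter on low values (0.0689). Its call was also lost without Het replicate 2 and without Nf1-KO replicate 2, with a log2 change of -0.16 in each case. The authors' deposited table gave an adjusted p of 3.4e-06 for Alg2, 1.8e-16 for Gfpt1 and 0.107 for Dpagt1.

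**Figure D5:**
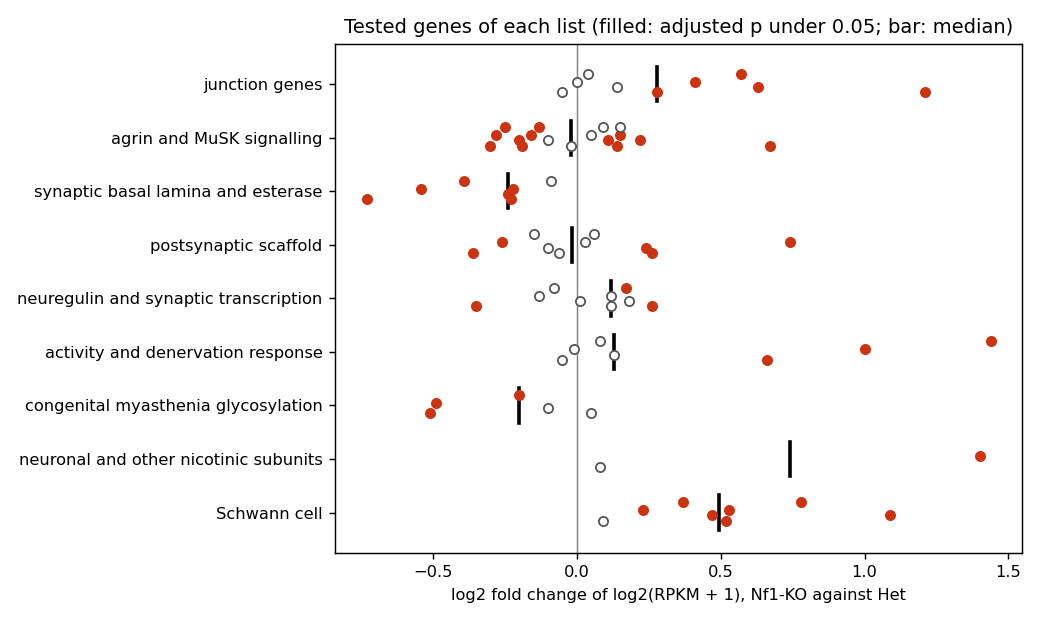
Log2 fold change of Nf1-KO against Het (horizontal axis) for each tested gene of 9 lists (rows), filled where the limma adjusted p is under 0.05, with a bar at the list's median. The 9 junction genes have a median of 0.28, the synaptic basal lamina and esterase list one of -0.24, and the Schwann cell list one of 0.50.

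Markers of some other cells in the sample also differed between the groups. The summed RPKM of 10 Schwann cell markers was 16.97 and 17.21 in Het and 38.09 and 36.29 in Nf1-KO. Of these 10, 7 rose, 1 did not pass and 2 were below the filter, and 3 of the tested 8 entered through the Nf1-KO libraries alone. Among all tested genes 24.9% passed as higher. Sox10, counted among the 7, had an adjusted p of 0.145 in the authors' deposited table. Pmp22, a myelin protein gene, rose from 5.20 and 5.55 RPKM to 10.53 and 10.72 RPKM, a log2 change of 0.78 (limma adjusted p 3.5e-05). Of 9 motor neuron markers, 7 were listed at 0 in all libraries, among them Chat and Slc18a3, and the sum of the list was between 0.07 and 0.13 RPKM. Motor neuron transcripts were thus near 0 in both groups.

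The summed RPKM of 8 satellite cell markers was 29.71 and 29.38 in Het and 40.41 and 39.66 in Nf1-KO, with 3 genes higher, 3 not passing and 2 below the filter. The share over all tested genes was 24.9% higher and 50.3% in either direction. Of the 3 calls, those of Vcam1 (limma adjusted p 0.0362) and Chodl (0.0497) were lost without a filter (0.079 and 0.125). Both were also lost on leaving out any 1 library, with log2 changes of 0.15 to 0.21 and 0.14 to 0.24. The authors' deposited table gave an adjusted p of 0.217 for Vcam1, 0.293 for Chodl and 1.8e-26 for Itga7. Without scaling 5 genes of this list passed as higher, and with a pseudocount of 0.1, 2 did. Itga7, an integrin gene that muscle fibres also express, held most of that difference, at 14.39 and 14.70 against 22.98 and 22.50 RPKM. Pax7, which defines satellite cells, was 0.52 and 0.54 against 0.68 and 0.79 RPKM and did not pass (limma adjusted p 0.0935). The sum of 7 immune cell markers was 8.71 and 9.08 against 27.98 and 27.90 RPKM, mostly from Lyz2, and Adgre1 was listed at 0 in all libraries. Of the 7, 3 rose (Lyz2, Csf1r and Cd68), 0 fell and 4 were below the filter, where 24.9% of all tested genes passed as higher. The call of Cd68 (limma adjusted p 0.02) was lost without a filter on low values (0.12). The 8 fast fibre markers, which check the tissue, summed to 61390 and 61340 RPKM in Het and 46150 and 45770 RPKM in Nf1-KO, and all 8 fell. Over all tested genes 25.4% passed as lower. Pvalb (parvalbumin), Actn3 and Myh4, genes of the fastest fibres, fell by 1.72, 1.35 and 1.08 on the log2 scale (limma adjusted p 1.2e-07, 2.2e-07 and 8.4e-07). The part of other cells and of the fibre markers in the changes of the junction genes was not tested.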

How the data were processed

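Total RNA was sequenced in 2 Het and 2 Nf1-KO libraries made with a TruSeq version 2 kit, per the labels' protocols. The submitters' processing notes name STAR 2.4.2a, DESeq2 and mm9, without roles, and counting and annotation are not given in the sources used here. The authors deposited 1 value per gene and library, summing to 532315 to 547144, taken as RPKM from its distribution. Per the file headers, the authors' deposited comparison table holds a signal (mean normalized count), a log2 fold change, a standard error and a test score, and a p-value raw and adjusted. Its sign was that of Nf1-KO against Het in all 4063 genes called by both analyses.

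Of 34682 rows, 33 named by a number were left out, and of rows sharing a name the highest by mean was used. Values were divided by library factors of 0.969, 0.967, 1.03 and 1.03, from an unweighted trimmed mean of log ratios over the tested genes (trimming 30% of the ratios and 5% of the abundances on either side). limma 3.58.1 in R 4.3.3 was run on log2(RPKM + 1) with a variance trend, Benjamini-Hochberg adjustment over 10690 genes and two-sided tests, after a test on simulated data. A pseudocount understates changes of low genes. RPKM of single libraries are as deposited. Depth was searched so that low values of 1373 short genes came closest to whole reads (mean distance 0.0806 to 0.0947 of a read, at least 0.2 with lengths permuted), and no intervals were derived from it. Ratios were tested with exact permutation tests in scipy 1.17.1. The labels give no batch.

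The 10 genes and the lists were chosen with earlier results of these data known. From each list up to 4 passing genes with the largest absolute log2 change were named. Genes named as not passing or below the filter were singled out after their values were seen. Alternatives were pseudocounts of 0.1 and 0.5, no filter, a filter of 1 RPKM in every library, unscaled values, no variance trend, a replicate block, summed rows of 1 name, and leaving out each library.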

Additional observations from a re-analysis of the deposited data

How the results depend on the processing

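Chrna1, Musk, Lrp4 and Colq passed as higher under each of the 12 alternatives, as did Chrnd except under the filter of 1 RPKM in every library, where it was not tested. The count of junction genes that rose was therefore 5, with 4 under that filter and 6 where Dok7 also passed (unscaled values, and without Nf1-KO replicate 1). In 2 genes that did not pass the sign turned. With unscaled values, Chrnb1 was 0.09 in place of 0.00 and Rapsn 0.04 in place of -0.05, and the scaling was the only setting changed there. Chrnb1 was also -0.05 to 0.04 when each library was left out. Replicate numbers did not pair the libraries (correlation of same-numbered deviations -0.018 across genes), and with the number as a block 5229 genes and the same 5 junction genes passed, against 5372 genes without it. With 1 library of a group left out, the spread comes from the other group, and 4235 to 4486 genes passed. Of 661 values under the alternatives, 623 stayed on their side of the threshold or within their margin, and 32 lost a call, among them Nf1 with the block (-0.18, limma adjusted p 0.0559), unscaled (-0.13) and without a filter (-0.18). Chrng, at 0.01 to 0.10 RPKM, is limited by depth: without a filter its log2 change was 0.05 (limma adjusted p 0.449).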
